A study of Mus musculus with 12 samples.

Results

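The 41 genes described here encode the machinery that copies DNA in S phase, together with a few regulators of entry into it. They were chosen by name from the gene table and all were found, 41 of 48709 genes, and all 41 were among the 13702 genes with enough reads to be tested. By role they are 6 subunits of the MCM helicase, 10 factors that load or activate it, 6 subunits of the sliding clamp and its loader, 8 polymerase, primase and Okazaki fragment genes, 3 subunits of the single-strand binding protein RPA, 4 enzymes of nucleotide supply and 4 regulators of the G1/S step or of chromatin.

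Before S phase the origin recognition complex, Cdc6 and Cdt1 load the MCM helicase onto DNA. Cdc45 and the GINS complex then switch the helicase on, and polymerases held by the clamp Pcna copy both strands. Most of these genes are transcribed in late G1 by E2F factors, which the retinoblastoma proteins hold back until cyclin-dependent kinases release them, so their RNA marks proliferating fibroblasts.

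RNA was sequenced from wild-type C57BL/6 mouse embryonic fibroblasts, connective tissue cells grown from embryos of embryonic days 12.5 to 13.5. One siRNA was against IMP2, the Igf2bp2 product, which binds mRNA that carries N6-methyladenosine. The other was a control siRNA, and 24 hours after transfection cells received 200 ng/mL of the cytokine IL-17 for 8 hours or no stimulus. The groups were siIMP2 and siControl without stimulus, and siIMP2_IL17 and siControl_IL17 with IL-17, with 3 libraries each and 33841054 to 44433699 counted reads per library. All groups had been transfected, and cells that were never transfected were not analysed here. In every group replicates 1 and 2 have titles that begin with NA and replicate 3 has a title that begins with RB160, and the labels do not say what these prefixes stand for.

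The prefixes separated the libraries more than the treatments did: the first principal component, with 62.1% of the variance, split NA from RB160, and the second, with 17.3%, set siIMP2 apart from siControl in both. The set was a term of the model. No pair of replicates agreed within sampling noise (chi-square per degree of freedom of 9.11 or more), and the labels do not say that replicates were separate cultures, so the spread behind each p-value is that of these libraries and may be technical. Igf2bp2, the siRNA target, had 22.3, 18.6 and 24.6 CPM (read counts scaled to library size) in siIMP2 and 167, 146 and 134 CPM in siControl, a log2 fold change of -2.77 ± 0.15 (SE). Its relative Igf2bp3 had 45.4, 40.6 and 37.9 CPM in siIMP2 and 61.9, 59.6 and 43.0 CPM in siControl. With IL-17 Igf2bp3 had 44.3, 42.2 and 38.4 CPM in siIMP2_IL17 and 60.8, 61.9 and 44.3 CPM in siControl_IL17. Igf2bp1 had 48.6, 50.2 and 43.0 CPM in siIMP2 and 47.3, 50.5 and 37.4 CPM in siControl. The part of Igf2bp3 in the results below was not tested. Summed fibroblast markers (14 genes, all measured) lay between 35844 and 37846 CPM in siIMP2 and between 32263 and 33510 CPM in siControl, with 3 markers higher and 8 lower. Endothelial, macrophage, epithelial and erythroid lists of 6 markers each summed to at most 6.09 CPM in any library, the macrophage list being the highest, with Adgre1 and Hba-a1 at 0 in all. Of 2 tested markers each, Cdh5 fell in the endothelial list, Krt8 rose and Cdh1 fell in the epithelial list, 0 passed in the macrophage list, and 0 erythroid markers were tested. A neural list of 6 markers summed to 429 to 954 CPM in siIMP2 and 331 to 984 CPM in siControl, most of it from Nes, and of its 3 tested markers Stmn2 fell. The part of such cells in the results below was not tested. Below, CPM are scaled by TMM factors, fold changes are log2 values with their standard error from 3 libraries per group, adjusted p is the Benjamini-Hochberg adjusted p of edgeR's quasi-likelihood test over the 13702 genes, and a gene fell or rose when that value was below 0.05.

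Since E2F factors act at these genes' promoters, the promoters were searched for the E2F words TTTGGCGC, TTTCGCGC, TTTCCCGC and TTTGCCGC on both strands. RefSeq promoters of GRCm38.p6, each 250 bases before to 50 after a gene's start, were at hand for 33 of the 41 genes. One of these words stood in 13 of 33 genes (39.4%), against 704 of all 27025 genes in the table (2.6%). The following stretches of 30 bases, 5′ to 3′ on the gene's strand, hold such a word in capitals and are shown for genes that fell in both siRNA comparisons below, from helicase loading to primer synthesis, with the chromatin factor Uhrf1 beside them.
Mcm5, chr8:75109349-75109378, plus strand: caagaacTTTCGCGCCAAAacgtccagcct
Mcm6, chr1:128359734-128359763, minus strand: gattggacgggTTTGGCGCgaagtagctca
Cdc6, chr11:98908002-98908031, plus strand: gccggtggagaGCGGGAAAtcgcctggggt
Gins3, chr8:95633507-95633536, plus strand: gcgagtgcggcGCGGGAAAgcgagtttgaa
Rfc3, chr5:151651209-151651238, minus strand: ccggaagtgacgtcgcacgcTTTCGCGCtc
Pola1, chrX:93632275-93632304, minus strand: gtcatcacaggGCGCCAAAtgcactcccgc
Uhrf1, chr17:56304117-56304146, plus strand: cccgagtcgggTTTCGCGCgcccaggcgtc
In Mcm5 2 words overlap, one on each strand, and its capitals run across both. The word shown for Rfc3 begins 10 bases before the start, that of Gins3 41 bases, that of Mcm6 47 bases, those of Cdc6 and Pola1 138 bases, the later word of Mcm5 149 bases, and that of Uhrf1 185 bases before the start of 1 of its 2 listed promoters. Each is the word nearest before the start, and Mcm6 has 3 words in all and Rfc3 2. Mcm7, which also fell in both comparisons, has a word 165 bases before the start of 1 of its listed promoters, and that stretch is not shown. All these starts are those of RefSeq. By the gene coordinates of the count data the stretches of Cdc6, Gins3, Rfc3, Uhrf1 and Mcm7 lie inside the gene. Those of Mcm5, Mcm6 and Pola1 lie before it by both. The CCAAT box (CCAAT, both strands), which binds NF-Y, stood in 63.6% of the 33 genes and 41.1% of all genes in the table, and the CHR words TTTGAA and TTCGAA in 18.2% and 21.7%. A match of letters is a description of the sequence and not a bound site.

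After the IMP2 siRNA 29 of the 41 genes fell and 0 rose, where 16.7% of all genes tested fell and 16.1% rose. The median log2 fold change of the 41 genes was -0.42, against -0.00 over all genes, and 40 of 41 values were negative, from -0.83 in Pola1 to 0.11 in Ccne1. With IL-17 present 28 of 41 fell and 0 rose (siIMP2_IL17 against siControl_IL17, with 16.7% of all genes lower and 16.7% higher), with a median of -0.47. In all 26 genes fell in both comparisons, Gins2, Orc6 and Pold1 passed only without stimulus, Gins1 and Rfc5 only with IL-17, and 10 passed in neither. Those 10 were Gins4, Orc1, Rfc2, Rfc4, Prim2, Rpa1, Tk1, Rrm2, E2f1 and Ccne1. In these bulk libraries fewer cells in S phase and less RNA per cell cannot be told apart.

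The set of libraries bears on this count. With the NA libraries alone 26 and 25 of the genes fell, the median in the 41 genes was -0.46 within NA and -0.39 within RB160 without stimulus, and -0.49 and -0.48 with IL-17. Without a term for the set 0 of the 41 genes passed in either comparison. Leaving out single libraries gave 20 to 32 and 21 to 33 called genes, with the lowest counts without siControl replicate 2 and without siIMP2_IL17 replicate 1.

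**Figure D1:**
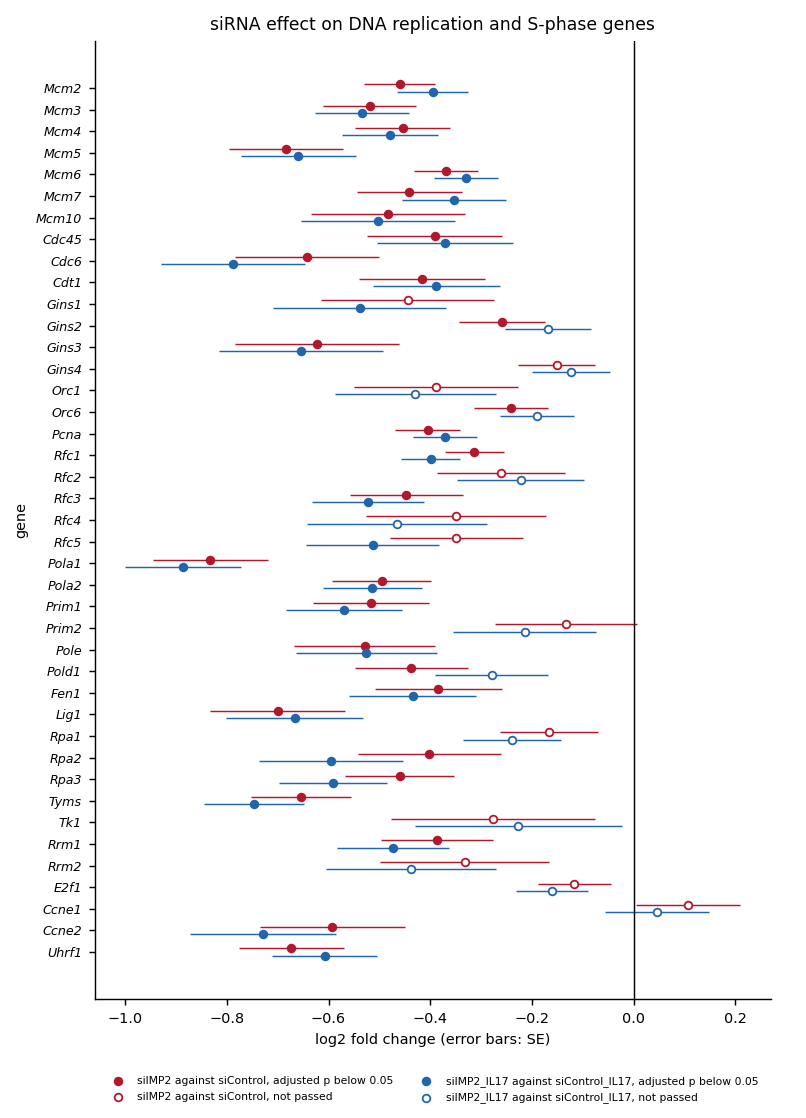
Log2 fold change of each of the 41 genes (rows, by role) for siIMP2 against siControl in red and siIMP2_IL17 against siControl_IL17 in blue, with the SE as bars; filled points passed an adjusted p of 0.05. Points lie left of 0 for 40 of 41 genes in both comparisons, and Ccne1 lies right of 0.

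The MCM helicase unwinds DNA at the fork, and all 6 of its subunit genes fell in both comparisons, with medians of -0.46 without stimulus and -0.44 with IL-17. Mcm5 (ENSMUSG00000005410, mm10 chromosome 8, 75109569 to 75128439, plus strand) had 58.8, 58.0 and 99.8 CPM in siIMP2, against 81.4, 116 and 146 CPM in siControl. The groups overlap across the sets, because the RB160 library of siIMP2 exceeds the lower NA library of siControl, while within each set every siIMP2 library is lower. The log2 fold change was -0.68 ± 0.11 (adjusted p = 5.55e-04 by edgeR), which leaves 62.2% of the siControl level. With IL-17 Mcm5 had 50.1, 58.8 and 91.0 CPM in siIMP2_IL17 and 78.7, 95.1 and 141 CPM in siControl_IL17, a change of -0.66 ± 0.11.
The other subunits had smaller fold changes without stimulus: -0.52 ± 0.09 in Mcm3, -0.46 ± 0.07 in Mcm2, -0.45 ± 0.09 in Mcm4, -0.44 ± 0.10 in Mcm7 and -0.37 ± 0.06 in Mcm6. With IL-17 the same 5 lay between -0.53 in Mcm3 and -0.33 in Mcm6. The MCM proteins work as one ring, and summed over the 6 genes the libraries held 464, 468 and 788 CPM in siIMP2, against 594, 745 and 1026 CPM in siControl.

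Of the 10 genes that load or activate the helicase 7 fell without stimulus and 6 with IL-17. Cdc6, the ATPase that brings the helicase to origins, had 9.65, 12.6 and 26.0 CPM in siIMP2 and 17.1, 20.8 and 34.4 CPM in siControl (-0.64 ± 0.14, adjusted p = 0.00385 by edgeR). With IL-17 it had 8.11, 9.40 and 26.0 CPM in siIMP2_IL17 and 15.3, 17.1 and 41.1 CPM in siControl_IL17 (-0.79 ± 0.14), so that the siIMP2_IL17 libraries of the NA set held the lowest Cdc6 levels measured.
Gins3, a subunit of the GINS complex that joins the active helicase, fell in both comparisons (-0.62 ± 0.16, and -0.65 ± 0.16 with IL-17). Its levels were low, 4.18, 4.66 and 7.80 CPM in siIMP2 and 5.76, 8.57 and 11.01 CPM in siControl. The GINS subunits were not alike in passing the test: Gins2 fell (-0.26 ± 0.08) and was -0.17 ± 0.08 with IL-17 (adjusted p = 0.148 by edgeR), Gins1 was -0.44 ± 0.17 (adjusted p = 0.0622) and fell (-0.54 ± 0.17) with IL-17, and Gins4 was -0.15 ± 0.08 and -0.12 ± 0.08. Gins1 has the lowest count of the 41 genes, 125 reads in 1 library, which limits its precision.
Mcm10, which stabilises the active helicase (-0.48 ± 0.15), Cdt1, the licensing factor that geminin restrains (-0.42 ± 0.12), and the helicase cofactor Cdc45 (-0.39 ± 0.13) all fell. Orc6, of the origin recognition complex, fell (-0.24 ± 0.07) and was -0.19 ± 0.07 with IL-17, while Orc1, its largest subunit, was -0.39 ± 0.16 and -0.43 ± 0.16 and missed the threshold in both (adjusted p = 0.0820 and 0.0529 by edgeR).

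**Figure D2:**
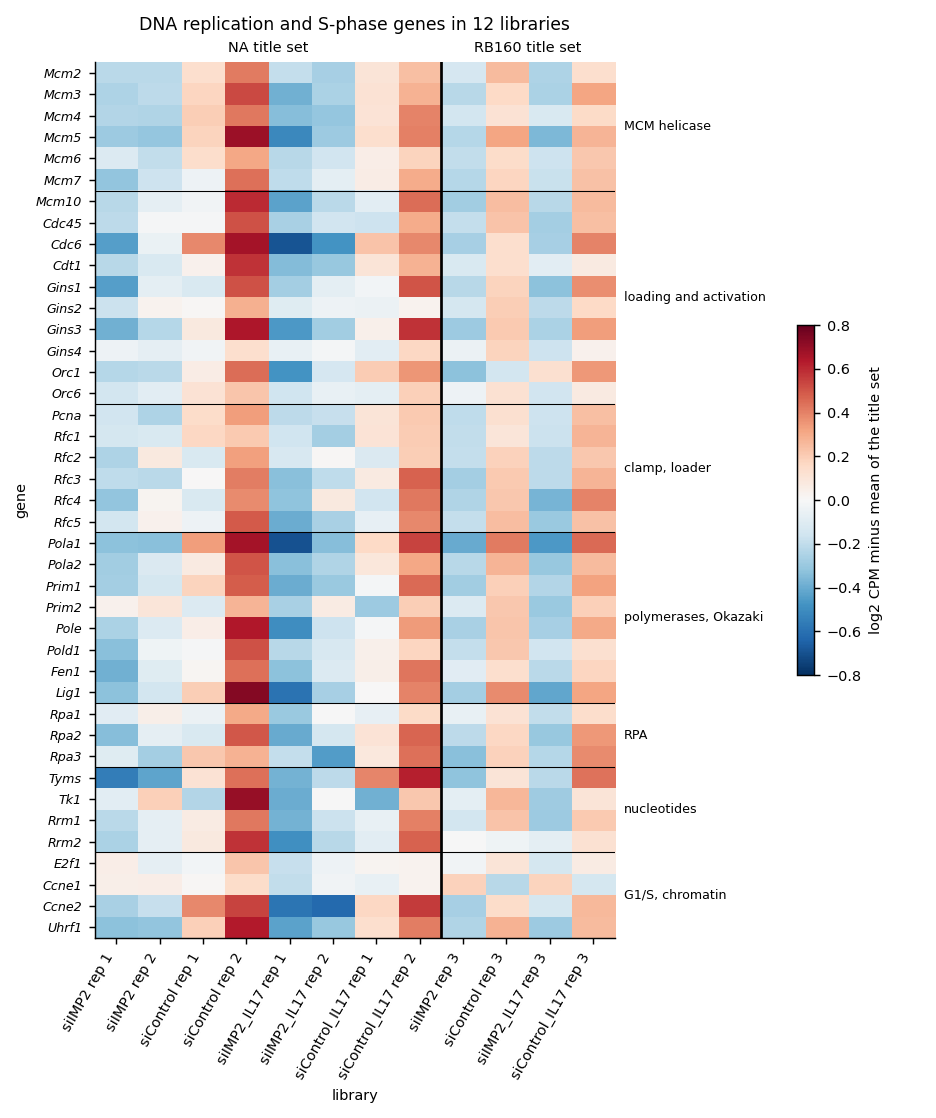
Log2 CPM of each gene (rows, by role) in each library (columns) minus that gene's mean over the libraries of the same title set, NA on the left and RB160 on the right of the black line; red is above and blue below the mean. Within both sets the siIMP2 and siIMP2_IL17 columns are mostly blue and the siControl and siControl_IL17 columns mostly red, and the strongest red is in replicate 2 of siControl.

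The sliding clamp and its loader gave 3 of 6 lower without stimulus and 4 of 6 with IL-17. Pcna, the clamp that tethers polymerases to DNA and the most abundant of the 41 genes per transcript length, had 91.8, 85.7 and 133 CPM in siIMP2 and 113, 128 and 167 CPM in siControl. Its change was -0.40 ± 0.06, and -0.37 ± 0.06 with IL-17 (adjusted p = 3.75e-04 and 6.84e-04 by edgeR). The loader's large subunit Rfc1 fell (-0.31 ± 0.06, and -0.40 ± 0.06 with IL-17), as did its subunit Rfc3 (-0.45 ± 0.11 and -0.52 ± 0.11).
Rfc5 was -0.35 ± 0.13 without stimulus (adjusted p = 0.0568 by edgeR) and fell (-0.51 ± 0.13) with IL-17. Rfc2 and Rfc4 passed in neither, at -0.26 ± 0.13 and -0.35 ± 0.18 without stimulus.

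Among polymerase, primase and Okazaki fragment genes 7 of 8 fell without stimulus and 6 of 8 with IL-17. Pola1, the catalytic subunit of the polymerase that starts each new strand, changed most of the 41 genes in both comparisons. It had 13.2, 13.1 and 35.1 CPM in siIMP2 against 20.9, 26.3 and 61.9 CPM in siControl, a change of -0.83 ± 0.11 (adjusted p = 1.38e-04 by edgeR), and it was left at 56.2% of the siControl level. With IL-17 it had 10.2, 13.1 and 33.7 CPM in siIMP2_IL17 against 18.6, 24.1 and 63.5 CPM in siControl_IL17, a change of -0.89 ± 0.11. The decrease was of like size within the sets, -0.84 in NA and -0.82 in RB160 without stimulus.
Lig1, the ligase that joins Okazaki fragments, had 27.2, 30.9 and 55.9 CPM in siIMP2 and 39.2, 56.7 and 87.9 CPM in siControl (-0.70 ± 0.13, adjusted p = 0.00151 by edgeR), and changed by -0.67 ± 0.13 with IL-17. Pole, the catalytic subunit of the leading-strand polymerase, fell without and with IL-17 (-0.53 ± 0.14 and -0.53 ± 0.14). So did the primase subunit Prim1 (-0.52 ± 0.11 and -0.57 ± 0.11), the polymerase alpha accessory subunit Pola2 (-0.50 ± 0.10 and -0.51 ± 0.10) and the flap nuclease Fen1 (-0.38 ± 0.12 and -0.43 ± 0.12), of whose gene reads 11.5% were uniquely assigned.
Pold1, the catalytic subunit of the lagging-strand polymerase, fell (-0.44 ± 0.11), and its siIMP2 libraries (27.2, 33.5 and 33.1 CPM) all lay below its siControl libraries (34.2, 49.0 and 43.9 CPM) across both sets. With IL-17 it was -0.28 ± 0.11 (adjusted p = 0.0714 by edgeR). The other primase subunit, Prim2, was -0.13 ± 0.14 and -0.21 ± 0.14 and passed in neither, with a difference of -0.03 in NA and -0.32 in RB160 without stimulus.

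RPA coats single-stranded DNA, and 2 of its 3 subunit genes fell in both comparisons. Rpa3 had 10.1, 8.95 and 13.7 CPM in siIMP2 and 12.6, 13.1 and 19.6 CPM in siControl (-0.46 ± 0.11), and Rpa2 changed by -0.40 ± 0.14. With IL-17 the changes were -0.59 ± 0.11 in Rpa3 and -0.60 ± 0.14 in Rpa2. The large subunit Rpa1 was -0.17 ± 0.10 and -0.24 ± 0.10 and did not pass (adjusted p = 0.209 and 0.0743 by edgeR).

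Of the 4 genes of nucleotide supply 2 fell in both comparisons. Tyms, which makes thymidylate, had 32.7, 35.8 and 48.8 CPM in siIMP2 and 52.0, 65.0 and 65.8 CPM in siControl, without overlap even across the sets. Its change was -0.65 ± 0.10 (adjusted p = 3.09e-04 by edgeR), and with IL-17, where the groups did not overlap either (36.9, 41.5 and 52.7 CPM in siIMP2_IL17, 62.8, 73.8 and 82.4 CPM in siControl_IL17), it was -0.75 ± 0.10. Rrm1, the large subunit of ribonucleotide reductase, fell in both comparisons (-0.39 ± 0.11, and -0.47 ± 0.11 with IL-17).
Rrm2, its small subunit, did not pass: it was -0.51 in NA and 0.03 in RB160 without stimulus, and -0.57 and -0.20 with IL-17. Its RB160 libraries had 142 CPM in siIMP2 and 139 CPM in siControl. Tk1, the thymidine salvage kinase, was the least precise of the 41 genes at -0.28 ± 0.20, with 32.4, 39.2 and 61.8 CPM in siIMP2 and 29.1, 55.6 and 78.5 CPM in siControl, which overlap within the NA set.

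The regulators divided. Uhrf1, which brings the maintenance methyltransferase to newly copied DNA, had 51.5, 52.1 and 97.6 CPM in siIMP2 and 74.0, 101 and 139.7 CPM in siControl (-0.67 ± 0.10, adjusted p = 3.40e-04 by edgeR), and changed by -0.61 ± 0.10 with IL-17. Ccne2, cyclin E2, had 8.48, 8.95 and 19.9 CPM in siIMP2 and 13.2, 14.8 and 26.4 CPM in siControl (-0.59 ± 0.14), and with IL-17 changed by -0.73 ± 0.14.
Ccne1, the related cyclin E1, did not pass: 48.8, 49.1 and 32.4 CPM in siIMP2, 47.5, 52.2 and 24.5 CPM in siControl (0.11 ± 0.10, adjusted p = 0.458 by edgeR). E2f1, a transcription factor of this gene set, had 29.1, 26.8 and 26.6 CPM in siIMP2 and 27.6, 32.7 and 29.2 CPM in siControl (-0.12 ± 0.07, adjusted p = 0.232). With IL-17 Ccne1 was 0.05 ± 0.10 and E2f1 -0.16 ± 0.07, and the E2f1 libraries, all between 24.7 and 28.7 CPM, were lower in each siIMP2_IL17 library than in each siControl_IL17 library.

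**Figure D3:**
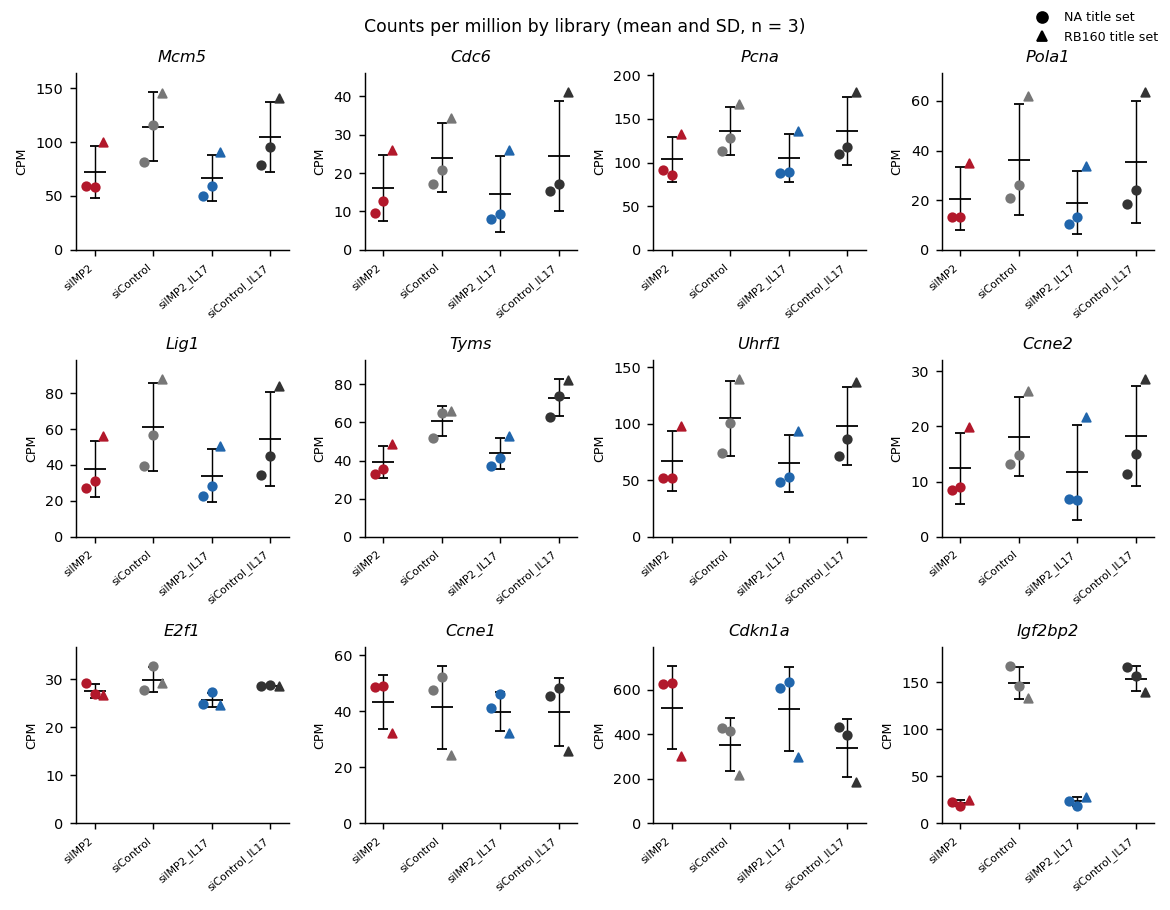
CPM (linear axis from 0) of 10 of the 41 genes and, for comparison, of the kinase inhibitor gene Cdkn1a and of the siRNA target Igf2bp2 in the 4 groups; points are libraries, circles NA and triangles RB160, and the bar is the mean with the SD (n = 3). Mcm5, Pola1, Lig1 and Uhrf1 are lower in siIMP2 than in siControl within each set, while Ccne1 shows no such order and Cdkn1a is higher in siIMP2.

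Counted library by library, 29 of the 41 genes were lower in every siIMP2 library than in every siControl library of the same set, where 25.8% of all genes tested were. With IL-17 31 of 41 were lower in this way, against 26.7% of all genes. Across both sets at once only Pold1 and Tyms were below without stimulus, and Pold1, Tyms and E2f1 with IL-17. The share of all genes below in this way was not counted, so these genes are not shown to stand out. The 41 genes together summed to 1513, 1600 and 2495 CPM in siIMP2, against 1851, 2373 and 3182 CPM in siControl, and to 1411, 1549 and 2421 CPM in siIMP2_IL17, against 1790, 2161 and 3275 CPM in siControl_IL17.

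The 2 NA libraries of a group also differ over these genes. In siControl replicate 2 exceeded replicate 1 in 41 of 41 genes, by a median of 0.38, where 50.04% of all genes tested did, by a median of 0.00. In siControl_IL17 it was 41 of 41 and 0.29, in siIMP2 31 of 41 and 0.13, and in siIMP2_IL17 37 of 41 and 0.14. The part of this difference in the comparisons above was not tested, and 20 of the genes fell when siControl replicate 2 was left out.

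Per transcript length the genes spanned a wide range in siControl, from 166 ± 55.0 TPM, a length-scaled abundance (SD, n = 3), for Pcna to 8.27 ± 1.68 TPM for Orc1. Rrm2 (133 ± 33.9), Rrm1 (108 ± 45.1) and Mcm6 (108 ± 57.1) followed Pcna, and the other MCM genes lay between 84.0 TPM for Mcm5 and 107 TPM for Mcm4. Among low genes were Pola1 (12.5 ± 9.21), Mcm10 (10.8 ± 5.65) and Gins3 (9.17 ± 3.87). Each of the 40 neighbouring pairs in this order overlapped in range, so the order of close genes is not fixed.

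IL-17 itself moved none of the 41 genes past the threshold with either siRNA. With siControl 0 of 41 passed, where 0.423% of all genes did, the median was -0.05, and values lay between -0.29 in Tk1 and 0.26 in Tyms, with SEs of 0.06 to 0.20. Tyms alone had an unadjusted p under 0.05 (0.26 ± 0.10, adjusted p = 0.342 by edgeR), with 62.8, 73.8 and 82.4 CPM in siControl_IL17 and 52.0, 65.0 and 65.8 CPM in siControl. With siIMP2 0 of 41 passed (0.511% of all genes) and 0 had an unadjusted p under 0.05, with a median of -0.07. DESeq2 and limma-voom called 0 of the genes in these comparisons too.
The difference of the 2 IL-17 responses (siIMP2_IL17 minus siIMP2, minus the same with siControl) passed in 0 of 41 genes and in 0.0% of all genes, and 0 of 41 had an unadjusted p under 0.05 in the edgeR fit. It ranged from -0.19 in Rpa2 to 0.16 in Pold1, with SEs of 0.08 to 0.29. The few genes that passed in only 1 of the siRNA comparisons are therefore not shown to differ between them.

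The title sets were compared over the same genes. In RB160 37 of 41 were higher than in NA and 1 was lower, where 34.9% of all genes were higher and 34.6% lower, and the median difference was 0.74 on the log2 scale. Pola1 had the greatest difference (1.48 ± 0.08), followed by Rfc4 (1.28 ± 0.12), Cdc6 (1.25 ± 0.10), Ccne2 (1.22 ± 0.10) and Prim1 (1.22 ± 0.08). Ccne1 was the gene that was lower (-0.72 ± 0.08), and Gins2 (0.03 ± 0.06), Pold1 (0.13 ± 0.08) and E2f1 (-0.05 ± 0.05) did not pass. The kinase inhibitor gene Cdkn1a was lower in RB160 (-1.05 ± 0.04).
Whether the siRNA effect itself differed between the sets was tested with a set-by-siRNA term, added after seeing the values within sets. It passed in 1 of 41 genes, where 5.2% of all genes passed. That gene was Ccne1, at 0.40 in RB160 and -0.03 in NA without stimulus. Mcm4 (0.30 ± 0.11) and Ccne2 (0.42 ± 0.17), whose siRNA fold changes were nearer 0 in RB160, had an unadjusted p under 0.05 and adjusted p of 0.133 and 0.180 by edgeR.

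Reads that fall inside a gene but outside its exons can come from unspliced RNA and give a second readout of the same libraries. How the column of all reads in a gene was counted is not given in the sources used here, and in the 1 library where this was checked, 193 of 544 genes with no intron also had such reads, 1563 in all. They were fewer, 5 to 969 per gene and library in these genes. Of the 41 genes 8 fell in siIMP2 against siControl and 0 rose, where 4.85% of all genes with such reads fell, and 39 of 41 values were negative with a median of -0.36. With IL-17 14 fell, where 4.66% of all genes did, with a median of -0.40.
Cdc6 had 14, 18 and 78 such reads in siIMP2 and 33, 43 and 114 in siControl (-1.01 ± 0.21, adjusted p = 0.0022 by edgeR), and changed by -0.90 ± 0.20 with IL-17. Pcna had 73, 67 and 198 in siIMP2 and 108, 85 and 249 in siControl (-0.52 ± 0.13, and -0.61 ± 0.13 with IL-17). The others without stimulus were Rfc3 (-1.39 ± 0.31), Mcm10 (-0.99 ± 0.24), Ccne2 (-0.89 ± 0.24), Rfc2 (-0.49 ± 0.12), Mcm5 (-0.49 ± 0.14) and Lig1 (-0.47 ± 0.14). Rfc3 had few such reads, 9, 6 and 25 in siIMP2 and 21, 12 and 65 in siControl. With IL-17 Rfc3 (-0.26 ± 0.29), Mcm10 (-0.36 ± 0.22) and Ccne2 (-0.44 ± 0.23) did not pass.
Mcm5, Cdc6, Pcna, Rfc2 and Lig1 passed in both comparisons of these reads, and Rfc2 did so although its counted reads did not pass. The count without stimulus turned on single libraries: without siIMP2 replicate 3 it was 1 and without siIMP2 replicate 2 it was 5. With IL-17 it was 6 without siIMP2_IL17 replicate 1 or siControl_IL17 replicate 2, 7 without siControl_IL17 replicate 3, and 9 without siIMP2_IL17 replicate 3.

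**Figure D4:**
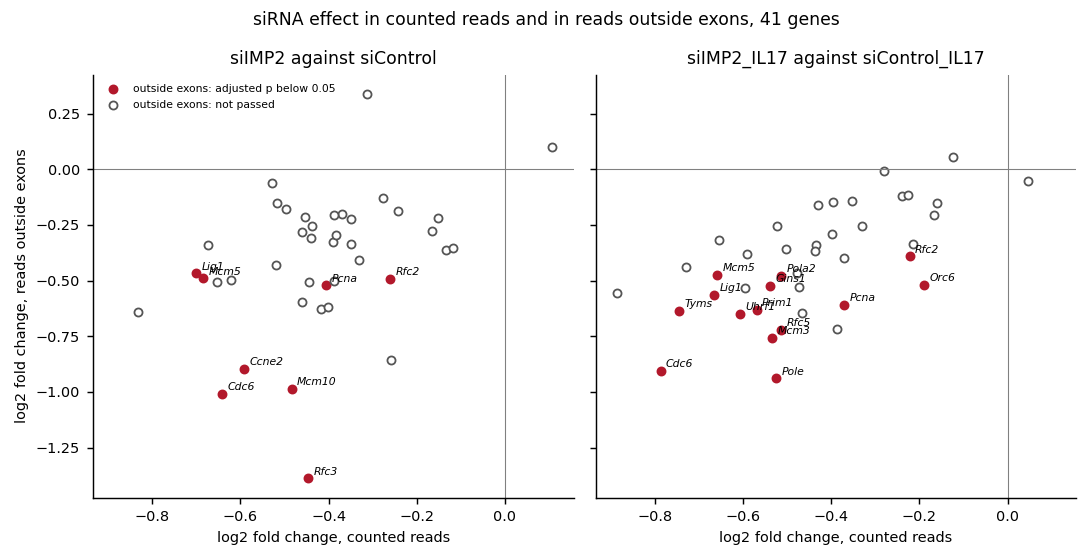
Log2 fold change in counted reads (horizontal) and in reads outside exons (vertical) for each of the 41 genes, on the left for siIMP2 against siControl and on the right for siIMP2_IL17 against siControl_IL17; red points passed an adjusted p of 0.05 in reads outside exons. Most points lie in the lower left, where both readouts are lower, with 8 red points on the left and 14 on the right.

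Set beside the promoter words, 12 of the 13 genes with an E2F word fell without stimulus and 13 of the 20 without one, with medians of -0.52 and -0.39. The other words split the genes in the same direction. For the CCAAT box 18 of 21 genes with it fell and 7 of 12 without it, with medians of -0.44 and -0.40. For the CHR words 6 of 6 with one fell and 19 of 27 without, with medians of -0.44 and -0.41. Orc1 was the gene with an E2F word that did not pass. No test was made of these splits, which describe 33 genes that were listed by function.

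Other genes of replication moved in the same direction in part. The counts here stand beside 16.7% of all genes tested that fell and 16.1% that rose. Of 32 further replication factors 14 fell and 1 rose. Dscc1, of an alternative clamp loader (-0.97 ± 0.16), Wdhd1, which couples polymerase alpha to the fork (-0.58 ± 0.12), and the MCM-binding protein gene Mcmbp (-0.36 ± 0.06) fell, and Orc4, of the origin recognition complex, rose (0.29 ± 0.06). Of 14 genes of chromatin assembly and maintenance 9 fell and 0 rose, with Cdca7l at -1.11 ± 0.16, Hells, a chromatin remodeller, at -0.56 ± 0.09 and the maintenance methyltransferase Dnmt1 at -0.46 ± 0.07. Of 17 other genes of nucleotide synthesis 6 fell and 1 rose, among them Dut, which removes dUTP, at -0.32 ± 0.09, and the mitochondrial thymidine kinase gene Tk2, named after its value was seen, at 0.25 ± 0.08. Of 18 repair genes that act at forks 8 fell and 0 rose, with the mismatch repair gene Msh6 at -0.47 ± 0.08.
The medians of these 4 lists without stimulus were -0.26, -0.38, -0.11 and -0.47 in that order. With IL-17 they had 14, 10, 7 and 10 lower, and 3 (Orc4, Pole4 and Pold4), 0, 0 and 0 higher, where 16.7% of all genes were lower and 16.7% higher.

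The regulators of the G1/S step outside the 41 genes were mixed. Of 18 measured cyclins, kinases and inhibitors 5 fell and 1 rose, where 16.7% of all genes fell and 16.1% rose, and with IL-17 2 fell and 2 rose (Cdkn1a and Fbxw7). Cdkn1a, which encodes the inhibitor p21 of cyclin-dependent kinases, had 623, 631 and 303 CPM in siIMP2 and 426, 416 and 218 CPM in siControl (0.54 ± 0.05, adjusted p = 1.27e-05 by edgeR), and changed by 0.61 ± 0.05 with IL-17. Other inhibitor genes of the list did not rise with it. Cdkn2c fell (-0.53 ± 0.18, adjusted p = 0.0387 by edgeR) and was -0.49 ± 0.18 with IL-17 (adjusted p = 0.058). Cdkn2a (-0.01 ± 0.10) and Cdkn2b (0.07 ± 0.10) did not pass. Cdkn1c had few reads, 7, 3 and 6 in siIMP2 and 8, 5 and 27 in siControl. Ccna2, cyclin A2 (-0.54 ± 0.17), and the G1 kinase gene Cdk4 (-0.28 ± 0.07) fell. A list of 16 genes held the E2F, retinoblastoma and DP family and, outside it, Lin9, Lin37, Lin52 and Lin54. Of the 16 genes 6 fell and 1 rose (6 and 2 with IL-17, Rb1 and Lin37 being the risers). Among them the retinoblastoma relative Rbl1 was at -0.46 ± 0.07 and the repressor E2f8 at -0.60 ± 0.12. Rb1, also named after its value was seen, was at 0.42 ± 0.10.
Genes of mitosis, which mark a later phase of the cycle, were lower as well: 14 of 35 fell and 0 rose, with a median of -0.44, Ccnb2 (cyclin B2) at -0.79 ± 0.16 and the checkpoint gene Mad2l1 at -0.50 ± 0.12. With IL-17 10 of 35 fell. In each comparison 16.7% of all genes tested fell. They summed to 2068, 2228 and 3277 CPM in siIMP2, against 2194, 3391 and 4197 CPM in siControl. Their part in the result was not tested.

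The authors' deposited table gives fold changes for the same comparisons under their own test. In the authors' deposited table the median over the 41 genes was -0.40 for siIMP2 against siControl and -0.44 with IL-17, with 40 of 41 negative and Ccne1 positive in both. None of the 41 genes (0 of 41) had an adjusted p there below 0.05 in either comparison, where 0.454% and 0.508% of all its genes were called lower. The test behind the authors' deposited table is not given in the sources used here.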

How the data were processed

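The authors deposited whole-number read counts for each gene and library, not normalised, from total RNA of mouse embryonic fibroblasts. The submitters' processing notes name the build mm10. No source used here gives the aligner, the counter or whether strand was used, so overlapping, antisense or near-identical genes may share reads. In 8 of the 41 genes under 90% of gene reads were uniquely assigned, the lowest being Fen1 (11.5%), Gins2 (30.1%), Tk1 (44.5%) and Cdt1 (56.7%). The TPM and the log2 fold changes and p-values of the deposited tables are the authors' own, per the file headers. All 12 count columns of the series table matched their library files, and 0 sample columns were unused.

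The fit used edgeR 4.0.16 under R 4.3.3, with TMM factors and low genes removed by filterByExpr (minimum count 10, minimum total 15). A quasi-likelihood model of all 12 libraries had a term for each of the 4 groups and one for the title set, and 13702 genes were tested at a Benjamini-Hochberg adjusted p of 0.05. The SE is the fold change divided by the root of the test's F. Reads outside exons are all reads of a gene minus the counted reads, fitted on their own for 12441 genes without 37 mitochondrial genes, with 1471094 to 2956875 such reads per library. The 41 genes had 125 to 13165 counted reads per library. The fit was tested on simulated counts. As alternatives the normalisation was changed to RLE or upper-quartile factors, the test to DESeq2 1.42.0 or limma-voom (limma 3.58.1) or a robust fit, the filter to none or to 1 CPM in 3 libraries, and the reads to uniquely assigned gene reads. These gene reads also take in reads outside exons, so that setting changed more than uniqueness. The set term was dropped, and the NA libraries alone, the compared groups alone and all but 1 library were fitted. The 41 genes and the lists beside them were chosen with earlier results of these data known. Genes named from other lists are among the 4 of smallest p in siIMP2 against siControl, except the risers Tk2, Rb1, Pole4, Pold4, Fbxw7 and Lin37 and the markers of other cell types, which were named after their values were seen, and not every gene so chosen is reported here. Cdkn2c and the other inhibitor genes given beside Cdkn1a were also named after their values were seen, regardless of that rule. Figures were drawn with matplotlib 3.10.9 in Python 3.11.15.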

Additional observations from a re-analysis of the deposited data

Results flagged for a closer look

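The siRNA effect on Ccne1, cyclin E1, differed between the title sets: the effect in RB160 minus that in NA, averaged over both stimulus conditions, was 0.42 ± 0.10 (edgeR quasi-likelihood test, Benjamini-Hochberg adjusted p = 0.0289, 1 RB160 and 2 NA libraries per group). In RB160 the effect was 0.40 without stimulus and 0.32 with IL-17, and in NA -0.03 and -0.10. RB160 had 32.4 CPM in siIMP2 and 24.5 CPM in siControl, and 32.3 CPM in siIMP2_IL17 and 25.9 CPM in siControl_IL17. The test passed in 1 of the 41 genes, where 5.2% of all genes passed. It was added after the values within sets were seen.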

How the results depend on the processing

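Without a title-set term 0 of the 41 genes passed in siIMP2 against siControl and 0 in siIMP2_IL17 against siControl_IL17. Under the other alternatives run the counts lay between 20 and 33, and 20 and 21 genes fell in all 22 of these fits, which include the NA libraries alone and the 12 fits without a library. Leaving out libraries gave 20 to 32 and 21 to 33 genes, and 1 to 11 and 6 to 14 genes in reads outside exons. The counts for IL-17 and for the difference of the IL-17 responses were 0 in every fit run, and that for the title sets was 38 to 39. Ccne1 turned negative with the NA libraries alone (-0.034 without and -0.10 with IL-17). Without single libraries it ran from -0.017 (without siControl replicate 3) to 0.20 without stimulus, and with IL-17 from -0.085 (without siIMP2_IL17 replicate 3), with -0.012 without siControl_IL17 replicate 3, to 0.14. The set difference of Gins2 ran from -0.031 (without siControl_IL17 replicate 3), with -0.00 without siControl replicate 1, to 0.071. The NA libraries alone were no alternative for the set itself. No paired analysis was run, because the replicate numbers follow accession order and the labels state no pairing. Whether the NA libraries form pairs across the groups was not tested.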
